A study of Homo sapiens with 24 samples.

Results

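The regions described here are 191 genomic positions at which chromatin precipitated with an antibody to the MYC tag gave a peak in both osimertinib-resistant and parental METTL7A-expressing HCC827 cells, and at which none of the 4 wild-type peak lists had one. HCC827 is a human lung adenocarcinoma cell line. The resistant METTL7A group is HCC827-OR expressing METTL7A with MYC and FLAG tags, grown in 1 µM osimertinib, and the parental METTL7A group is untreated HCC827 with the same construct. The wild-type groups are HCC827-OR kept in the drug and untreated HCC827, both without the construct, each precipitated with the MYC-tag antibody or with IgG. Resistant cells therefore differ from parental ones in line and in drug at the same time, and these cannot be told apart. The sources used here do not state which promoter drives the construct or whether the lines are clonal. Chromatin immunoprecipitation sequencing gave 8 deposited lists from 16 of the 24 samples, each list combining the 2 replicates of a group.

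Peaks of all 8 lists that shared at least 1 bp were merged into positions. The 13347 peaks formed 11138 positions, of which 10709 lay outside the regions left out by rule (54 to 57 Mb of chromosome 7, 55 to 70 Mb of chromosome 12, 11 to 12 Mb of chromosome 6 and the mitochondrial genome). The 191 positions were 1.78% of these 10709. They held 391 MYC-tag peaks, 196 in the resistant and 195 in the parental METTL7A list. Inside the left-out regions 39 further positions met the rest of the rule, 27 on chromosome 7, 10 on chromosome 6, 2 on chromosome 12 and 0 in the mitochondrial genome. The positions were selected on the presence of peaks in these lists, which peak height decides, so presence and height are given as a description and were not tested.

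METTL7A, also named TMT1A, is a methyltransferase-like protein known mainly from membranes of the endoplasmic reticulum and lipid droplets. The MYC tag is a short stretch of the human MYC transcription factor, so an antibody to it can also meet MYC itself, which binds DNA with its partner MAX. Wild-type cells precipitated with the same antibody, and IgG precipitations, are the usual controls for such signal. Positions are given on GRCh37, the build named in the submitters' processing notes. No annotation or sequence of that build was used here, so positions are named by coordinates, without genes and without their bases.

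Peak height is the authors' −log10 p from the peak caller, taken as the lower of the 2 replicates. Which library served as the control in peak calling is not stated in the labels or the lists, so a height may be relative to input, to IgG or to no control. The median height at the 191 positions was 4.93 in the resistant list, with a range of 3.02 to 11.8, and 4.89 in the parental list, with a range of 3.02 to 10.3. Over all peaks outside the left-out regions the median was 4.49 in the resistant list and 4.65 in the parental list. Both replicates reached a height of 5 at 94 of 196 resistant peaks (48.0%, against 36% of that whole list) and at 88 of 195 parental peaks (45.1%, against 30.8% of that list). The irreproducible discovery rate (IDR) compares the ranks of matched peaks in 2 replicates. A global IDR of 0.05 or less was reached by 7 resistant peaks (3.57%, against 0.65% of that list) and by 6 parental peaks (3.08%, against 1.15% of that list). Most peaks at these positions were thus low and did not reach the IDR threshold. A position found in only 1 METTL7A list and in no wild-type list had a lower median, 4.49 over 2413 resistant positions and 4.55 over 1574 parental positions. The 79 positions found in both METTL7A lists and in a wild-type list had a higher one, 5.31 in the resistant list and 5.45 in the parental list.

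Replicates ranked the peaks of these positions only loosely. Spearman's rho between the 2 replicates was 0.179 over the 196 resistant peaks and 0.193 over the 195 parental peaks, and over the whole lists it was 0.0615 in the resistant and 0.0686 in the parental list. At the 79 positions that also had a wild-type peak, rho was similar, 0.210 in the resistant and 0.191 in the parental list. These are correlations across peaks of 1 list, whose members passed a height limit in both replicates, and peaks are not independent replicates. The second replicate in the file was the higher one at 101 of 196 resistant peaks and at 132 of 195 parental peaks. Heights also recurred exactly: the value 5.31 filled 31 of the 392 replicate values in the resistant list, and 5.92 filled 17 of the 390 in the parental list. These are 7.91% of the resistant and 4.36% of the parental values, against 10.7% and 5.02% over the whole resistant and parental lists.

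The 12 positions with an IDR of 0.05 or less in either list include 1 that reached it in both. This was 21:10610271-10613295, where the 2 replicates had heights of 20.2 and 11.8 in resistant cells and 8.74 and 26.7 in parental cells. It was also the highest of the 191 when they were ranked by the lower of the 2 list heights. All 4 values exceeded 8, but within each cell state the replicates were far apart, and the summits of the highest resistant and parental peaks lay 1621 bp from each other. The parental list had 2 peaks here, as also at 1:148928019-148930600 and 5:34189521-34193650. In all, 9 of the 191 positions had 2 peaks of 1 list. Heights, overlaps and summits compared between the lists at such a position are those of the higher peak.

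The next positions in this ranking were 1:148928019-148930600, 5:34189521-34193650 and 8:128747248-128748842. At the chromosome 1 position the replicates had heights of 9.73 and 17.5 in resistant cells and 7.89 and 9.65 in parental cells, and the IDR was 0.0115 in the resistant list and 0.107 in the parental list. At the chromosome 5 position they had 14.1 and 7.83 in resistant cells and 8.22 and 12.2 in parental cells, so the values of the 2 cell states overlapped. With 4130 bp, this was the widest of the 191 positions.

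At 8:128747248-128748842 the replicates had heights of 7.97 and 7.29 in resistant cells and 9.36 and 9.07 in parental cells. Here both parental values lay above both resistant values, and the summits lay 53 bp apart. The neighbouring position 8:128749225-128751746, whose nearest edge lay 383 bp away, had peaks in all 4 MYC-tag lists, with heights of 6.87 and 5.59 in METTL7A cells that were resistant and parental, and of 5.10 and 3.39 in the wild-type resistant and parental lines. The nearest wild-type peak itself began 1067 bp from the member position. MYC-tag signal without the construct was therefore measured next to this position, though not at it.

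**Figure D1:**
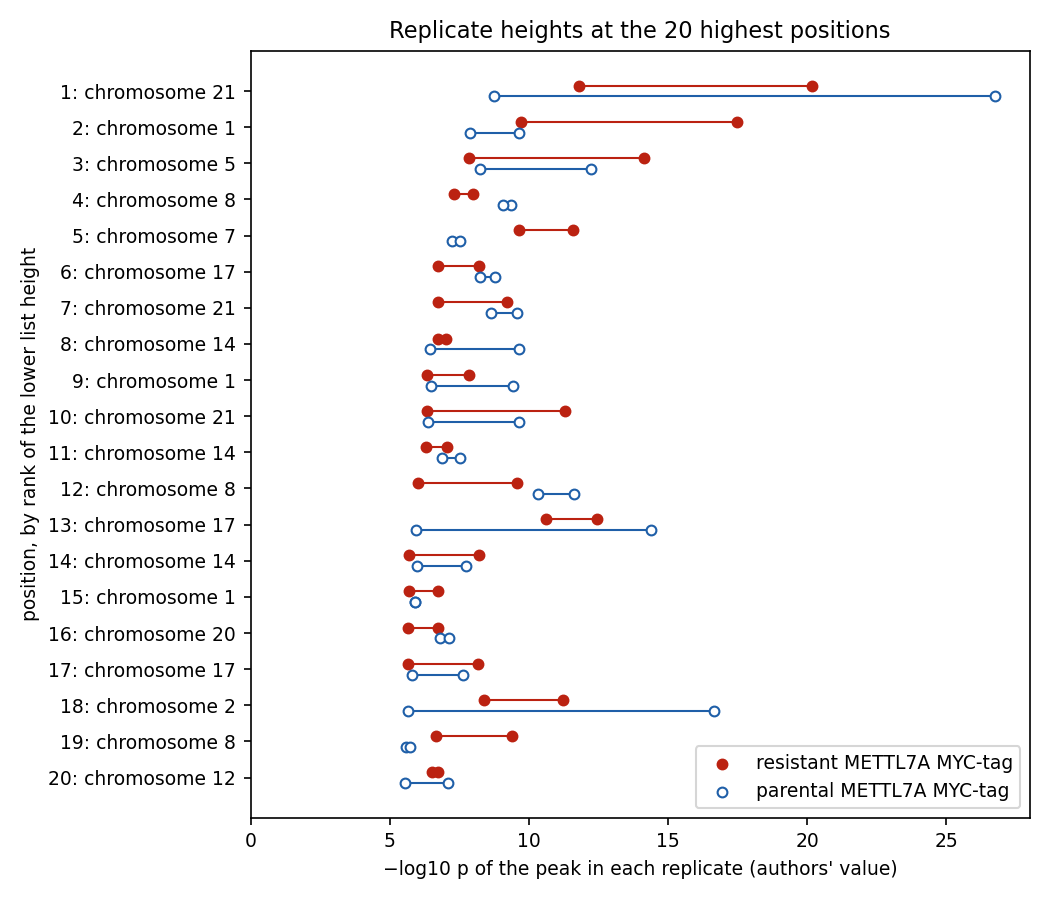
Heights (−log10 p, x axis) of both replicates at the 20 positions with the highest lower list height, ranked from the top; filled red points are resistant and open blue points parental METTL7A MYC-tag cells, and a line joins the 2 replicates of a list. The first position reaches 26.7 and most others stay below 15.

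The plot of replicate heights at the 20 highest positions shows how far the 2 replicates of one list can lie apart. These 20 positions lay on 10 chromosomes. Their lower height ended at 5.53, and the next position below had 5.52, so the rank limit separates near-equal values. The resistant peak was the higher one at 8 and the parental peak at 12 of them. A wild-type peak lay within 10 kb of 8 of the 20, and the summits of the 2 lists lay within 200 bp of each other at 6.

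Some positions had an IDR of 0.05 or less in only 1 of the 2 lists, and those given here stood higher in that list. Choosing them by the IDR of 1 list favours a greater height in it, so the direction is given as a description only. At 16:87686213-87687092 the replicates had heights of 14.1 and 10.3 in resistant cells and 9.39 and 3.62 in parental cells. At 17:21307196-21309779 they had 12.4 and 10.6 in resistant cells and 5.93 and 14.4 in parental cells, where the higher parental replicate exceeded both resistant ones. At X:117479642-117480214 they had 9.33 and 11.1 in resistant cells and 5.26 and 5.53 in parental cells, so that both resistant values were above both parental ones. In the other direction, 7:57640580-57641402 had 4.36 and 3.85 in resistant cells and 10.1 and 9.72 in parental cells. At 21:15588289-15589095 they were 3.99 and 7.03 in resistant cells and 9.62 and 9.65 in parental cells. At all of these positions except 17:21307196-21309779, the replicates of the 2 cell states did not overlap. Of the other positions chosen in the same way, they overlapped at 5:34189521-34193650, 8:82088418-82089292 and 21:10607137-10609635. They did not overlap at 1:148928019-148930600, 7:57879021-57879803 and 8:82644427-82645093. The share without overlap was not counted over the 191 positions, and 2 values on each side are too few to show a difference. Heights of separate lists have no common scale, and no test of these differences was made.

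Across the 191 positions the heights of the 2 lists were weakly related, with Spearman's rho 0.0916 and Pearson's r 0.146, as a description across positions that share the same 4 libraries. The resistant peak was the higher one at 95 positions and the parental peak at 96. The 2 heights differed by less than 1 at 78 positions (40.8%). All 4 replicate values reached 5 at 45 positions (23.6%), and at 27 of the 79 positions that also had a wild-type peak (34.2%).

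**Figure D2:**
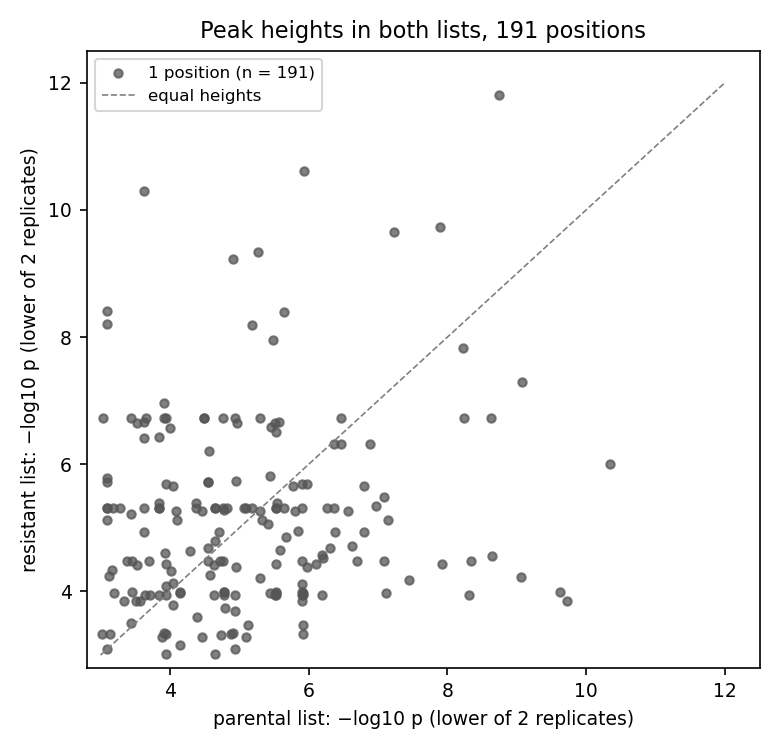
Peak height in the resistant list (y axis) against the parental list (x axis), each as −log10 p of the lower replicate, with 1 point per position and a dashed line of equal heights. The points fall almost evenly to both sides, 95 above and 96 below the line. Horizontal rows mark heights that recur exactly in the resistant list, and vertical columns those that recur in the parental list.

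The peaks of the 2 lists at one position often covered different bases. They overlapped directly at all 191 positions, with a median of 506 bp and a range of 2 to 2083 bp. The overlap was under 100 bp at 6 positions. The smallest, 2 bp, was at 2:128382089-128383219, followed by 13 bp at 11:70920159-70921016 and 24 bp at 20:62168084-62169736. Summits lay a median of 258 bp apart, and within 200 bp at 80 positions (41.9%). At the 79 positions with a wild-type peak the median was 209 bp, and 45.6% lay within 200 bp. The positions had a median width of 1140 bp, from 435 to 4130 bp. Just outside the rule, 47 pairs of a resistant-only and a parental-only position lay within 1000 bp without sharing a base. The closest pair lay 81 bp apart on chromosome 11, with heights of 3.98 in the resistant and 4.76 in the parental list.

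Positions shared by a resistant and a parental list and free of the other genotype were also found in wild-type cells. Of the 2912 resistant and 1994 parental METTL7A MYC-tag positions, 270 were in both lists (9.27% of the resistant and 13.5% of the parental list), and 191 of the 270 were in no wild-type list (70.7%, exact 95% binomial interval 64.9 to 76.1%, counting error only). The wild-type MYC-tag lists had 2531 resistant and 829 parental positions and shared 62, of which 50 were in no METTL7A list (80.6%, interval 68.6 to 89.6%). The wild-type IgG lists had 2351 resistant and 1358 parental positions and shared 152, of which 136 were in no METTL7A list (89.5%, interval 83.5 to 93.9%). Genotype-specific shared positions made up 6.56% of the resistant and 9.58% of the parental METTL7A MYC-tag list. In the wild-type IgG lists, which used neither the construct nor the tag antibody, they made up 5.78% of the resistant and 10.0% of the parental list. In the wild-type MYC-tag lists they made up 1.98% of the resistant and 6.03% of the parental list. The METTL7A IgG lists, with 71 resistant and 65 parental positions, shared 2, of which 0 were free of wild-type peaks (interval 0 to 84.2%). Lists of the METTL7A genotype against which the wild-type pairs were screened include short IgG lists, so the screens are not of equal strength. All of these intervals treat positions as independent draws, although many lie in groups, and they do not measure variation between replicates. The 191 were picked by the rule, so their share is a description.

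Among the 270 shared METTL7A MYC-tag positions, 34 (12.6%) coincided with a resistant wild-type MYC-tag peak, 22 (8.15%) with a parental wild-type MYC-tag peak, 23 (8.52%) with a resistant wild-type IgG peak and 25 (9.26%) with a parental wild-type IgG peak. No single wild-type list held more than 34 of the 270.

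The rule did not use the METTL7A IgG lists, which were short, with 96 peaks in resistant and 70 in parental cells. A METTL7A IgG peak lay at 2 of the 191 positions (1.05%), against 0.28% of all 4636 positions with a METTL7A MYC-tag peak, or 13 positions. The share was similar, 1 of 79 (1.27%), at the positions in both METTL7A lists and a wild-type list. It was 0.21% of positions in the resistant METTL7A list only and 0.13% of those in the parental METTL7A list only. The resistant IgG peak was at 1:104112735-104113245, with replicate heights of 3.77 and 4.73. At that position the MYC-tag heights were 9.65 and 5.72 in resistant cells and 3.10 and 12.3 in parental cells. The parental IgG peak was at 9:132046815-132047323, with 3.81 and 4.24, where the MYC-tag heights were 3.28 and 3.16 in resistant cells and 4.15 and 7.72 in parental cells. With counts this small, no difference in IgG signal between the 191 positions and the others can be read.

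Absence of a wild-type peak at a position did not mean absence nearby. The nearest wild-type peak lay a median of 16.7 kb away and as close as 193 bp. It lay within 1000 bp at 4 positions, within 5 kb at 42, within 10 kb at 67 (35.1%) and within 100 kb at 157 (82.2%). For positions in the resistant METTL7A list only the median was 29.5 kb with 29.1% within 10 kb and 4.85% within 1000 bp, and for those in the parental METTL7A list only it was 31.9 kb with 26.4% within 10 kb and 4.64% within 1000 bp. At the 191 positions the share within 1000 bp was 2.09%, below both of these, whereas the share within 10 kb was above both, and neither difference was tested. The nearest wild-type peak belonged to the resistant MYC-tag list at 73 of the 191 positions, to the resistant IgG list at 47, to the parental IgG list at 42 and to the parental MYC-tag list at 29. The resistant MYC-tag list was also the longest of the 4, with 2767 peaks. At 2:28659540-28660589, the position nearest to a wild-type peak, the MYC-tag heights were 3.98 and 4.49 in resistant cells and 8.33 and 7.11 in parental cells.

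**Figure D3:**
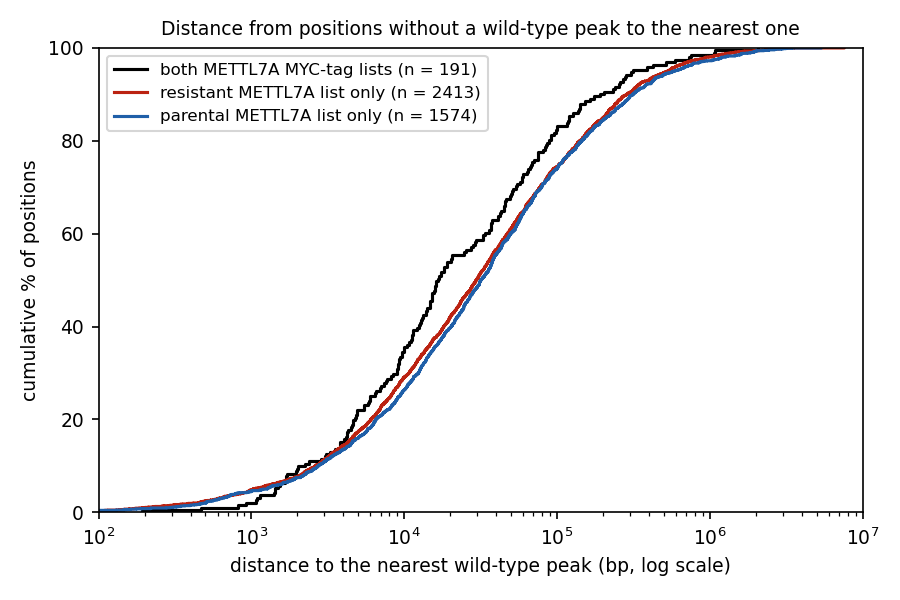
Cumulative percentage of positions (y axis) by distance to the nearest wild-type peak (x axis, bp, log scale) for the 191 positions in both METTL7A MYC-tag lists and for those in the resistant or the parental METTL7A list only. The black curve of the 191 lies below the other 2 at 1000 bp (2.09%), is above both at 2 kb (9.42%) and reaches 82.2% at 100 kb.

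The positions were spread unevenly over the chromosomes. Chromosome 14 held 24 of the 191, 3.34% of its 718 positions, against 1.78% over all chromosomes. Chromosome 20 held 17 of 486, chromosome 8 held 16 of 450 (3.56%) and chromosome 21 held 8 of 111 (7.21%). Positions in both METTL7A MYC-tag lists, with or without a wild-type peak, give another base. Members were 8 of 16 of these on chromosome 21 and 16 of 28 on chromosome 8. They were 24 of 28 on chromosome 14 and 17 of 18 on chromosome 20, against 191 of 270 over all chromosomes. Chromosome 3 held 1 of 411, and chromosomes 13, 15, 18 and 22 held 0. The parental METTL7A list had only 0 to 17 positions on each of those last 4 chromosomes.

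**Figure D4:**
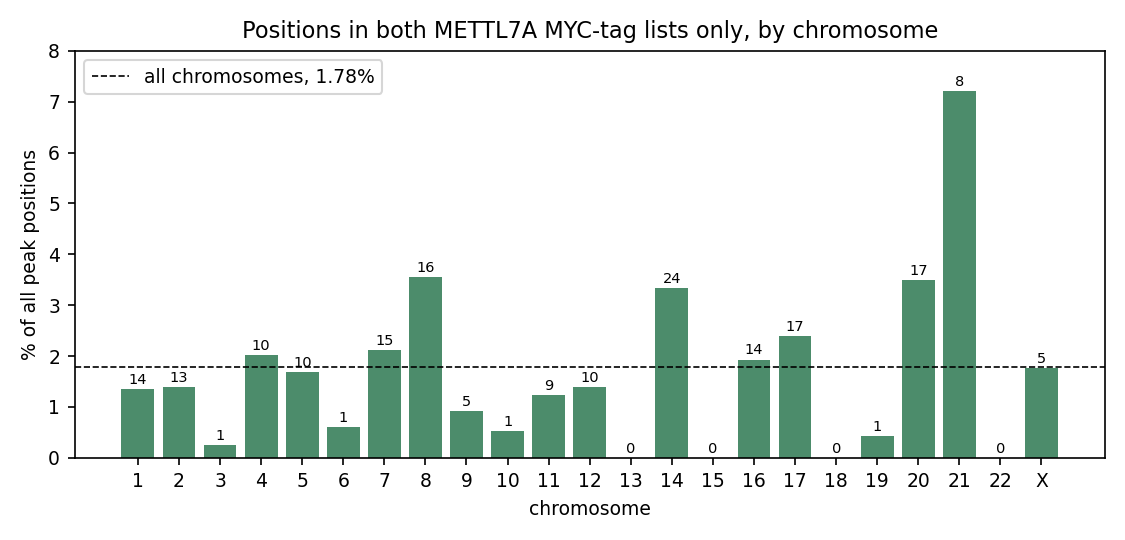
Positions in both METTL7A MYC-tag lists and no wild-type list as a percentage of all peak positions of each chromosome (bars, with the number of positions above each); the dashed line is 1.78% over all chromosomes. Chromosome 21 stands highest at 7.21% from 8 positions.

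About as many positions were grouped as were isolated. With neighbours joined when at most 500 kb apart, 63 positions fell into 11 groups of 3 or more, 32 into 16 pairs, and 96 stood alone. The largest group, 13 positions at 14:104173943-105620812, lay among 123 positions of any list, 54 of them with a wild-type peak. Its lower heights ran from 3.10 to 5.26. The group of 11 at 20:60419678-62171852 lay among 119 positions, 56 with a wild-type peak, and its lower heights ran from 3.33 to 5.66. Positions with a wild-type peak thus outnumbered the members in both groups.

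Each group was bounded by its first and last member, which raises the share of members in it by construction. In 4 smaller groups the members made up a larger share of the positions, while the share with a wild-type peak was lower in some and similar in others. At 7:57432845-57879803, 8 of 23 positions were members and 7 had a wild-type peak. At 17:21203672-21327058, 5 of 14 were members and 4 had a wild-type peak. At 21:15358956-15789898, 4 of 13 were members and 6 had a wild-type peak. At 8:82088418-82645093, 4 of 14 were members and 6 had a wild-type peak. The share was also larger at 1:41897737-41965119 (3 of 7), 4:3605213-3831787 (3 of 17) and 16:88782381-89033370 (5 of 33). It was smaller at 5:488768-1320177 (4 of 60).

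The densest group, at 21:10605409-10613295, held 3 positions within 7.89 kb, and no other position lay between them. Beside the first-ranked one, 21:10605409-10606578 had heights of 6.72 and 9.23 in resistant cells and 8.63 and 9.55 in parental cells. The position between, 21:10607137-10609635, had 16.3 and 9.23 in resistant cells and 4.91 and 15.5 in parental cells. A wild-type IgG peak of parental cells, with heights of 5.18 and 4.75, lay within the neighbouring position 21:10603397-10604501, and the wild-type peak ended 1548 bp from this group. All 3 positions were present in both lists, but IgG signal was measured beside them. No annotation of repeated sequence and no list of regions prone to spurious peaks was used here, so whether this group, or those on chromosomes 7 and 17, lies in such a region was not tested.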

How the data were processed

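Chromatin from 24 samples (12 groups of 2 replicates) was analysed by the authors, and 8 deposited lists, each of a pair of replicates, were used. The 4 input groups have no list of their own here. The submitters' processing notes name Bowtie2 2.4.2, MACS2 2.2.7.1, SAMtools 1.16, bedtools 2.30, deepTools 3.5.1, Trimmomatic, FastQC and GRCh37, without roles. The lists have 20 columns in the IDR layout. Heights are −log10 p-values deposited by the authors for each replicate, and the global IDR is also deposited as −log10. The authors' deposited score column was not used. Library depth is unknown from peak lists, so intervals cover counting of positions only.

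Peaks were merged and counted with Python 3.11.15, pandas 2.3.3, numpy 2.4.6 and scipy 1.17.1, and figures drawn with matplotlib 3.10.9. The merging step was tested on simulated lists. With 1 list per group there is no replicate error, and no test was run. Members and lists were chosen with earlier results of these data known. Positions named were those at an IDR of 0.05 or less, the 20 highest by the lower list height, the 5 highest of each list and those with a METTL7A IgG peak, and the text gives the values of the few that the comparisons turn on. Positions beyond these (smallest overlaps, nearest wild-type peak, groups) were chosen after their values were seen.

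No annotation of GRCh37 was used here, so the planned share at gene starts and the planned gene lists could not be done. An attempt to place genes and promoter motifs with gene bounds entered from memory was discarded, because those genes had been picked with the member coordinates in view. Closeness to centromeres was also tried, first with bounds from memory and then with the longest peak-free stretch of each chromosome. The 2 definitions gave different answers, the second did not mark centromeres, and neither is reported.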

Additional observations from a re-analysis of the deposited data

How the results depend on the processing

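Each of 14 alternatives changed 1 choice, giving 64 recomputed values, of which 40 stayed within the limits set for them and 24 did not. Merging peaks closer than 500 bp or 1000 bp, using direct overlap without merging, removing positions within 1000 bp of a wild-type peak, or removing those with a METTL7A IgG peak left 187 to 221 positions. Requiring a reciprocal overlap of 50% left 110, with a resistant median height of 5.26. A height of 5 in all lists left 58 positions, 80.6% of those in both METTL7A lists, with medians of 6.31 (resistant) and 5.90 (parental). The same height in the METTL7A MYC-tag lists alone left 45, or 62.5%, with medians of 5.91 (resistant) and 5.90 (parental). An IDR of 0.05 in those lists left 1 position of 3 (33.3%), with heights of 11.8 (resistant) and 8.74 (parental). A METTL7A IgG peak lay at 0 positions under each of these last 3 settings, and by construction at 0 when such positions were removed. When only wild-type peaks at an IDR of 0.05 counted, 266 positions were left, and the share in no wild-type list was 98.5%. It was 81.5% (220 positions) when only wild-type MYC-tag lists counted, and 52.8% (230 positions) with the left-out regions kept in. These counts stayed within the limit for counts, while the shares did not. Those shares moved because fewer wild-type peaks, or other positions, entered. With a single replicate's heights the median was 5.31 to 5.72 in the resistant list and 5.27 to 6.30 in the parental list, higher because the lower of the pair is no longer taken. No paired analysis was possible because each list combines both replicates and no list says which replicate fills which columns. The windows around gene starts were not run, since no annotation of the build was used.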
